A study of Mus musculus with 6 samples.

Results

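The genes described here encode the subunits of the proteasome and the factors that assemble or inhibit it. The group was picked with earlier results of these data known, and its members were set by symbol. Every listed name was taken that starts with Psma to Psmg followed by a digit and is not marked as a pseudogene. This gave 49 of 26216 gene names. Of these, 19 belong to the core (Psma and Psmb), 20 to the cap and its assembly (Psmc and Psmd), 4 to the activators (Psme) and 5 to the inhibitor Psmf1 and the assembly chaperones Psmg1 to Psmg4. The symbol rule also took in Psmc3ip, which encodes a recombination factor that binds a cap ATPase and is no subunit.

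RNA was sequenced from LT/ST-HSCs, the long-term and short-term haematopoietic stem cells, sorted at week 6 after transplantation as the CD150+ CD48- cells of the Lin- sca1+ c-kit+ marrow fraction, without those that bound Annexin-V. Equal numbers of LSK cells, the stem and progenitor fraction of the marrow, from Ltbr-/- donors (CD45.2) and from Ly5.1 donors (CD45.1, intact Ltbr) had been given together to lethally irradiated Ly5.1/Ly5.2 recipients, and pooling of cells from 6 such chimeras gave 3 replicates of each genotype. Ltbr encodes the lymphotoxin β receptor, and the mutation is a germline intragenic deletion that every cell of the donor carries. Donors were 13 weeks old for Ltbr-/- replicate 1, 10 weeks for replicate 2 and 10 to 13 weeks for replicate 3, against 7 to 13 weeks for each Ly5.1 replicate, so that age and genotype cannot be told apart fully. Ly5.1 cells come from another congenic line, and no proteasome gene lies within 10 Mb of Ltbr or of Ptprc, the CD45 gene by which the donors differ.

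The proteasome is the protease that degrades proteins tagged with ubiquitin. Its core is a stack of rings of α subunits, which form the gate, and β subunits, a few of which carry the catalytic sites, while the cap recognises ubiquitin, removes it and unfolds the substrate with a ring of ATPases. In cells of the immune system and after interferon, the catalytic subunits Psmb8, Psmb9 and Psmb10 take the places of Psmb5, Psmb6 and Psmb7, and the immunoproteasome so formed cuts peptides for presentation on MHC class I. Haematopoietic stem cells are known for a low rate of protein synthesis and a dependence on protein quality control.

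The deposited value of each gene is a normalised signal on a linear scale whose log2 is a regularized log, a value scaled for library size and drawn towards the mean for weakly expressed genes, so that fold changes of weak genes are understated. The files hold no read counts and the depth of each sample is unknown from them. In these bulk samples a change in the share of a cell type and a change in RNA per cell cannot be told apart. The signal of Ltbr was 24.2, 26.4 and 23.1 in the Ltbr-/- replicates and 564, 549 and 522 in the Ly5.1 replicates, so that the labels and the target gene match. All 12 stem cell markers examined were above a signal of 20 in every sample, and their summed signal was 20524 to 20932 in Ltbr-/- and 22069 to 22884 in Ly5.1, with Ly6a (-0.39), Cd34 (-0.31) and Meis1 (-0.23) lower and Gata2 (0.22) higher on the log2 scale by the limma test. Marker lists of other cells also moved with genotype. The summed granulocyte markers were 44036 to 44605 in Ltbr-/- against 57672 to 62377 in Ly5.1, with 10 of 11 lower, and the mast cell and basophil markers 15289 to 16452 against 7233 to 8112, with 3 of 8 higher and 1 lower, while Mcpt4, Tpsab1 and Tpsb2 stayed under 20. Erythroid markers summed to 4109 to 4437 against 2718 to 3073 (2 of 6 higher), monocyte and macrophage markers to 3475 to 3808 against 2981 to 3248 (2 of 8 higher), with C1qa, C1qb and C1qc under 20. B and plasma cell markers summed to 2452 to 2539 against 2979 to 3235 (2 of 6 higher, 2 lower), with Ms4a1 and Pax5 under 20, and T and NK cell markers to 1071 to 1187 against 1133 to 1254 (0 of 4 passing the limma test, Cd3e, Cd3d and Cd3g under 20). The part of these lists in the values of the proteasome genes was not tested.

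Proteasome transcripts were modestly more abundant in Ltbr-/- than in Ly5.1 LT/ST-HSCs. Of 48 tested genes, 44 had a log2 fold change above 0, where 46.4% of all 13108 tested genes and 49.0% of the quartile with the highest mean did, and the scaling of the samples on ribosomal protein genes described with the limits was the only one of the scalings tried that put most of them below 0. The median log2 fold change was 0.18, or 13.2% more signal, against -0.01 over all tested genes. Benjamini-Hochberg adjusted p from limma was under 0.05 for 16 of the 48, all higher in Ltbr-/-, and for 0 on the lower side, while 10.6% of all tested genes were higher by this test and 4.18% lower. The changes were small. Only Psmb1 also passed a fold of 1.5, the second threshold of the study, which 2.72% of all tested genes passed upwards and 0.061% downwards. For 25 of 48 genes every Ltbr-/- replicate lay above every Ly5.1 replicate, against 17.0% of all tested genes, and for 0 the reverse held, against 13.5%. The 95% confidence interval of the log2 fold change lay above 0 for 25 genes and held 0 for the other 23.

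**Figure D1:**
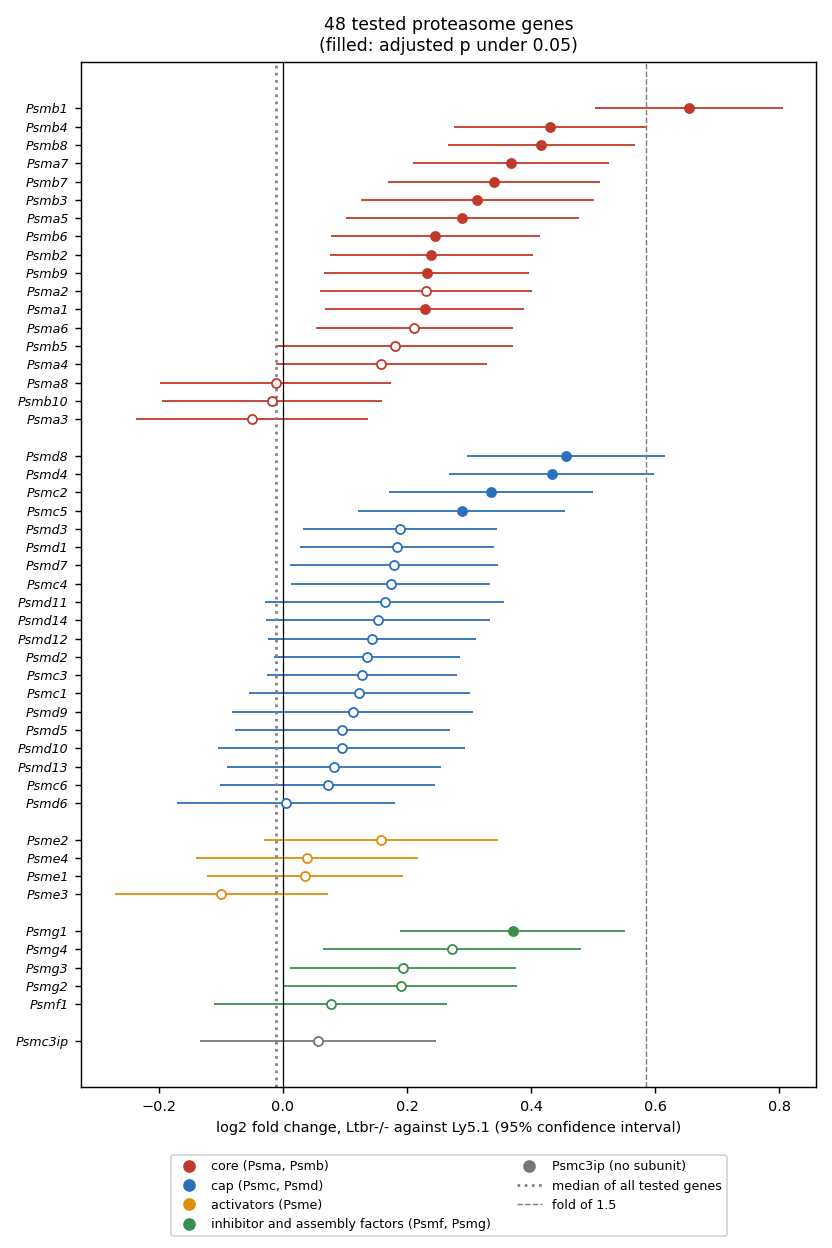
Log2 fold change (x axis, Ltbr-/- against Ly5.1, 3 replicates each) of the 48 tested proteasome genes, grouped by role, with 95% confidence intervals from limma and filled points for adjusted p under 0.05. Of the 48 points 44 lie above 0 and only Psmb1 lies beyond the dashed line of a 1.5-fold change; the dotted line is the median of all tested genes.

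Proteasome genes are strongly expressed, and strongly expressed genes of any kind passed the test more often. By mean signal, 35 of the 48 lay in the highest quartile of tested genes, 9 in the next, 4 in the one after and 0 in the lowest. In the highest quartile 14 of the 35 proteasome genes passed, against 22.6% of all its genes, and 2 of the 9 in the next. The count over all proteasome genes is therefore read against the highest quartile, where 29.1% of genes had higher Ltbr-/- replicates without overlap and 8.76% passed both thresholds. Across the 48 genes the log2 fold change correlated with the log2 mean signal with Pearson's r = 0.44 and Spearman's rho = 0.45, a description over genes measured in the same 6 libraries.

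Of the 18 tested core genes 15 lay above 0, 11 passed the test as higher and 13 had groups without overlap. Their median log2 fold change was 0.24. Over all tested genes 46.4% lay above 0, 10.6% passed as higher and 17.0% had higher Ltbr-/- replicates without overlap. In the quartile with the highest mean these shares were 49.0%, 22.6% and 29.1%. The count of core genes that passed was 5 without Ltbr-/- replicate 3. It was 6 without Ltbr-/- replicate 2 or either of Ly5.1 replicates 1 and 2. A linear model without moderation left 1 core gene, Psmb1. With length and GC content removed by a loess curve, 5 core genes and 4 cap genes passed. The median was then 0.10 over all 18 tested core genes and 0.10 over all 20 cap genes. The classes were not tested against each other. Psmb1, a structural β subunit at chr17:15475721-15498276 (GRCm38.p6), had a signal of 4815, 4965 and 4963 in the Ltbr-/- replicates and 3339, 2951 and 3087 in the Ly5.1 replicates. Every Ltbr-/- replicate stood well above the highest Ly5.1 replicate, and the means were 4914 ± 85.9 and 3126 ± 197 (SD, n = 3 each). The log2 fold change was 0.65 (SE 0.07, 95% confidence interval 0.50 to 0.81, limma adjusted p = 9.91e-09), or 57.4% more signal.

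By the limma test 10.6% of all tested genes and 22.6% of the highest quartile by mean were higher in Ltbr-/-. All 4 structural β subunits of the core were higher by this test. Their median log2 fold change was 0.37, or 0.20 with length and GC content removed. Besides Psmb1 these were Psmb4 (0.43, adjusted p = 5.05e-05), Psmb3 (0.31, adjusted p = 0.0171) and Psmb2 (0.24, adjusted p = 0.0390). With length and GC content removed, Psmb3 (0.10) and Psmb2 (0.05) did not pass, while Psmb1 and Psmb4 did. Of the 6 fits that left out a sample, Psmb3 passed in 3 and Psmb2 in 2, and Psmb1 and Psmb4 in all 6. Psmb4 had 4285, 4812 and 4938 in the Ltbr-/- replicates and 3473, 3302 and 3624 in the Ly5.1 replicates. Its groups did not overlap, as was so for Psmb2 and Psmb3. Psmb3 shares 32.3% of its 76-base transcript windows with other annotated genes, so that its reads may have been divided or pooled with theirs.

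Of the 8 α subunits, which form the outer rings and the gate, 3 passed the test, with a median of 0.22 over the 8. For comparison, 10.6% of all tested genes passed as higher, and 22.6% of the highest quartile by mean. Psma7 was higher by 0.37 (adjusted p = 0.000688), Psma5 by 0.29 (adjusted p = 0.0300) and Psma1 by 0.23 (adjusted p = 0.0456). Psma5 shares 39.3% of its windows with other genes. Just outside the threshold were Psma2 with 0.23 (adjusted p = 0.0611) and Psma6 with 0.21 (adjusted p = 0.0634), and Psma4 had 0.16. Psma8, the germ cell form of an α subunit, had a log2 fold change of -0.01. Psma3, the lowest of the core, had a signal of 168, 163 and 143 in the Ltbr-/- replicates and 152, 158 and 181 in the Ly5.1 replicates, which overlapped. Its log2 fold change was -0.05 (95% confidence interval -0.24 to 0.14, adjusted p = 0.778), and 21.3% of its windows are shared with other genes. Psmb11, the catalytic subunit of the thymus, was listed at 1 in all 6 samples and was not tested.

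**Figure D2:**
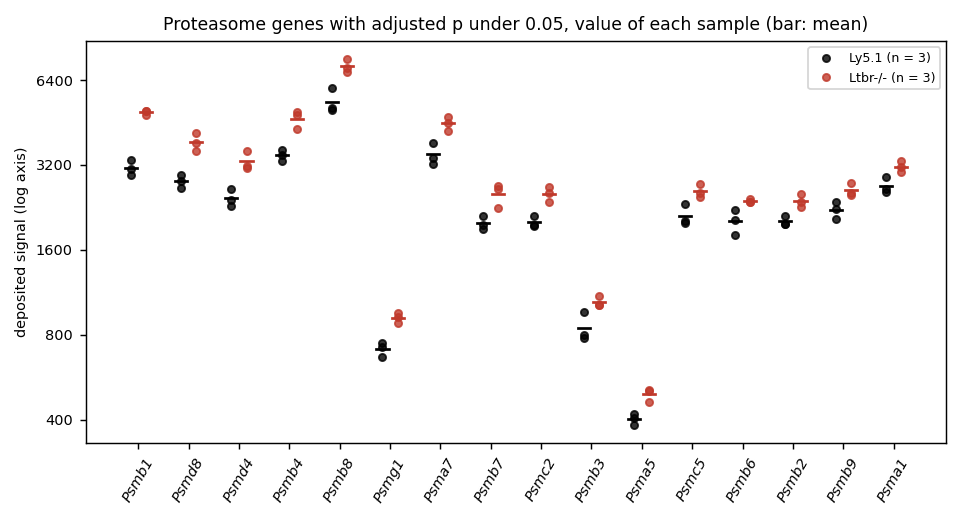
Deposited signal (y axis, log scale) of the 16 proteasome genes with adjusted p under 0.05 in each of the 3 Ltbr-/- and 3 Ly5.1 replicates; points are replicates and horizontal bars their means. In all 16 the Ltbr-/- replicates lie above the Ly5.1 replicates, with the widest gap in Psmb1 (4815 against 3339 for the nearest replicates).

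The catalytic subunits of the constitutive core and their immunoproteasome counterparts were compared next, since both sets were expressed in these cells. Psmb8 had 6823, 7041 and 7606 in the Ltbr-/- replicates and 5111, 5015 and 5994 in the Ly5.1 replicates. The genotypes did not overlap, and the log2 fold change was 0.42 (SE 0.07, adjusted p = 5.78e-05). Psmb5, the constitutive subunit it replaces, had 1039, 1234 and 1112 against 932, 926 and 1136. Here Ly5.1 replicate 3 lay above Ltbr-/- replicates 1 and 3, and the log2 fold change of 0.18 did not pass (95% confidence interval -0.01 to 0.37, adjusted p = 0.213). Psmb5 shares 39.3% of its windows with other genes, whereas Psmb8, in the MHC region at chr17:34198195-34201454, has 11.1% of its exon bases under Gm20496 on the opposite strand.

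Psmb9 had 2495, 2762 and 2555 in Ltbr-/- and 2237, 2052 and 2371 in Ly5.1. The highest Ly5.1 replicate lay below the lowest Ltbr-/- replicate. The log2 fold change was 0.23 (adjusted p = 0.0497), and 12.6% of its exon bases lie under Tap1 on the opposite strand. Its constitutive counterpart Psmb6 had 2364, 2365 and 2431 against 2038, 1813 and 2207. These did not overlap either, and the log2 fold change was 0.25 (adjusted p = 0.0407). Psmb10 had 1875, 1965 and 2131 against 2182, 1759 and 2121. Its groups overlapped in full, with a log2 fold change of -0.02 (95% confidence interval -0.20 to 0.16, adjusted p = 0.926). Psmb7 had 2250, 2687 and 2632 against 1953, 2114 and 1900. Every Ltbr-/- replicate was above every Ly5.1 replicate, and the log2 fold change was 0.34 (adjusted p = 0.00374). Of the exon bases of Psmb7, 34.9% lie under Nek6 on the opposite strand. The paper names a stranded library kit, but the strand setting of the counting is not given in the sources used here.

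The ratio of each immunoproteasome subunit to its counterpart was compared in each sample. The log2 ratio of Psmb8 to Psmb5 was 2.72, 2.51 and 2.77 in the Ltbr-/- replicates and 2.46, 2.44 and 2.40 in the Ly5.1 replicates. The groups did not overlap, and the difference of 0.24 compares with a pooled SD of 0.10, but it was 0.078 after quantile normalisation. The log2 ratio of Psmb9 to Psmb6 differed by -0.01 with full overlap. The log2 ratio of Psmb10 to Psmb7 was -0.26, -0.45 and -0.30 in Ltbr-/- and 0.16, -0.26 and 0.16 in Ly5.1. That difference of -0.36 went the other way, and Ly5.1 replicate 2 lay within the range of the Ltbr-/- replicates. These ratios use signals that are not divided by transcript length, so that they compare genotypes and not the amounts of the subunits. With 3 against 3 an exact permutation test cannot give a p below 0.1, and no p is given for the ratios. Of the 3 ratios, that of Psmb8 to Psmb5 was the one with groups apart.

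**Figure D3:**
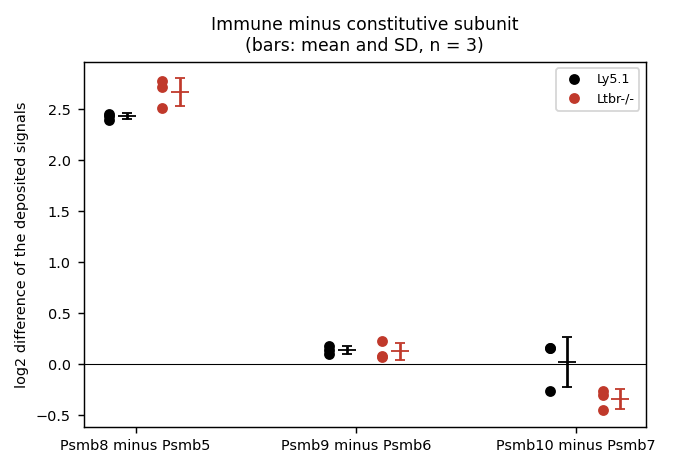
Log2 ratio (y axis) of each immunoproteasome subunit to the constitutive subunit it replaces, in 3 Ltbr-/- and 3 Ly5.1 replicates; points are replicates and the bars beside them mean and SD. Psmb8 to Psmb5 is higher in all Ltbr-/- replicates (difference of means 0.24), Psmb9 to Psmb6 overlaps (-0.01), and Psmb10 to Psmb7 is lower on average (-0.36) with 1 Ly5.1 replicate among the Ltbr-/- values.

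All 20 cap genes lay above 0, where 46.4% of all tested genes and 49.0% of the quartile with the highest mean did. The median log2 fold change was 0.15. Only 4 passed the limma test, against 10.6% and 22.6% as higher, so that this count is near the share of the highest quartile. For 10 cap genes every Ltbr-/- replicate lay above every Ly5.1 replicate, against 17.0% and 29.1%. Psmd8, a subunit of the lid, the part that holds the deubiquitinase, had 3582, 3840 and 4157 in the Ltbr-/- replicates and 2960, 2657 and 2815 in the Ly5.1 replicates. The lowest Ltbr-/- value exceeded the highest Ly5.1 value, and the log2 fold change was 0.46 (SE 0.08, adjusted p = 3.21e-05), or 37.2% more signal. Psmd4, a ubiquitin receptor, had 3176, 3131 and 3593 against 2401, 2290 and 2640. It too was higher without overlap, by 0.43 (adjusted p = 0.000124).

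Of the 6 ATPases that unfold substrates, Psmc2 (0.34, adjusted p = 0.00297) and Psmc5 (0.29, adjusted p = 0.0139) passed. The share passing as higher was 10.6% over all tested genes and 22.6% in their highest quartile by mean. The other 4 ATPases had log2 fold changes of 0.17 for Psmc4, 0.13 for Psmc3, 0.12 for Psmc1 and 0.07 for Psmc6. Among the base scaffold subunits, Psmd1 had 0.18 and Psmd2 0.14, neither passing, although both had groups without overlap. In the lid, Psmd8 alone of 8 genes passed. Psmd3 had 0.19, Psmd7 0.18, Psmd11 0.16, the deubiquitinase Psmd14 0.15, Psmd12 0.14 and Psmd13 0.08. Psmd6, the lowest cap gene, had 1364, 1459 and 1642 in Ltbr-/- and 1469, 1426 and 1544 in Ly5.1. These values overlapped, with a log2 fold change of 0.01 and a 95% confidence interval of -0.17 to 0.18. The 3 chaperones of cap assembly did not pass, with 0.11 for Psmd9, 0.10 for Psmd5 and 0.09 for Psmd10.

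None of the 4 activators, which open the core without ubiquitin, passed the test, and their median log2 fold change was 0.04. Psme2, an interferon-induced subunit of the immunoproteasome activator, had the highest value of the 4, with 465, 423 and 454 in Ltbr-/- and 394, 382 and 427 in Ly5.1. Ltbr-/- replicate 2 lay below Ly5.1 replicate 3, and the log2 fold change was 0.16 (95% confidence interval -0.03 to 0.35, adjusted p = 0.278). Its transcript shares 51.4% of its windows with other genes. Psme1, its partner in the activator ring, had 0.04 and Psme4 0.04. Psme3, the nuclear activator, was the lowest of all 48, with 1486, 1350 and 1540 against 1519, 1609 and 1555. Ltbr-/- replicate 3 lay above Ly5.1 replicate 1, and the log2 fold change of -0.10 had a 95% confidence interval of -0.27 to 0.07 (adjusted p = 0.486).

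Among the chaperones that build the core, Psmg1 was higher in Ltbr-/-, with 923, 952 and 881 against 664, 722 and 748. The groups were well apart, and the log2 fold change was 0.37 (SE 0.09, adjusted p = 0.00293). Psmg4 had 0.27 (adjusted p = 0.0696), Psmg3 0.19 and Psmg2, the partner of Psmg1, 0.19. Psmf1, an inhibitor of the core, had 604, 562 and 645 against 555, 608 and 553. Its groups overlapped, and the log2 fold change was 0.08 (adjusted p = 0.646). Psmc3ip, the recombination factor, had 0.06.

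The same values were also laid out sample by sample, which restates the fold changes and is no separate support. After each gene was centred on its mean over the 6 samples, the median log2 deviation of all proteasome genes was 0.05, 0.11 and 0.12 in the Ltbr-/- replicates and -0.14, -0.12 and -0.02 in the Ly5.1 replicates. Ly5.1 replicate 3 lay nearest to the Ltbr-/- samples. Core genes gave 0.06, 0.13 and 0.19 against -0.16, -0.19 and -0.04, and cap genes 0.05, 0.11 and 0.07 against -0.14, -0.12 and -0.01. The medians of the 4 activators overlapped between genotypes. Ribosomal protein genes, which are also short and strongly expressed, moved in the same direction and by more, since their medians were 0.34 to 0.44 in Ltbr-/- replicates and -0.48 to -0.28 in Ly5.1 replicates, with a median log2 fold change of 0.78.

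**Figure D4:**
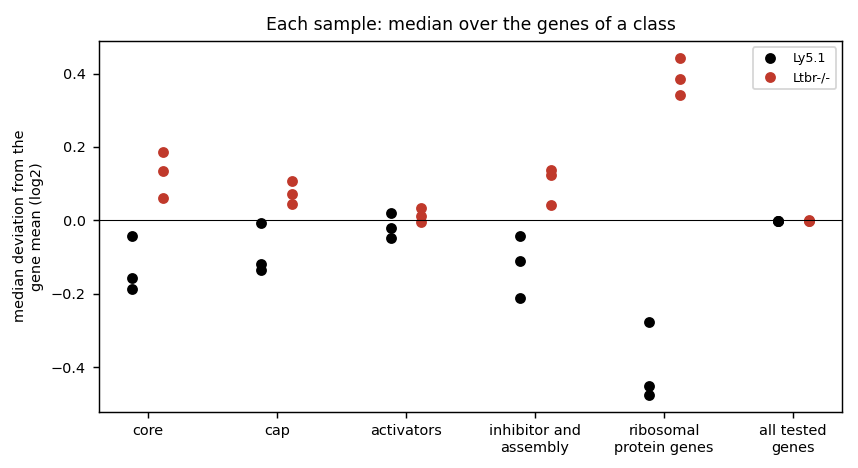
Median log2 deviation from each gene's mean (y axis) over the genes of each role, over ribosomal protein genes and over all tested genes; each point is 1 of the 3 Ltbr-/- or 3 Ly5.1 replicates. Core and cap genes lie above 0 in all 3 Ltbr-/- replicates and below 0 in all 3 Ly5.1 replicates, the activators overlap, and ribosomal protein genes are farther apart (0.34 to 0.44 against -0.48 to -0.28).

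Transcript length moved with the result as well. Of 48 proteasome genes 34 lay in the quartile of tested genes with the shortest transcripts (102 to 1974 bases), where 24.3% of all genes were higher by adjusted p, and 15 of the 34 passed. Of the 10 in the next quartile 1 passed, where 8.53% of all genes did, and 0 of the 4 longer ones. Across the 48 genes the log2 fold change correlated with log2 length with r = -0.30 and rho = -0.37, and with GC content with r = 0.28 and rho = 0.29. When length and GC content were removed by a loess curve in each sample, the median over proteasome genes was 0.10, 9 passed, and 7 of the 16 were among them. Psmb1 had 0.61, Psmd8 0.40, Psmd4 0.36, Psmb8 0.32, Psmb4 0.29, Psmc2 0.28 and Psma7 0.23 after this correction. Psmb6 had 0.04 and Psmb2 0.05, and neither passed. The part of length in the remaining differences was not tested further.

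**Figure D5:**
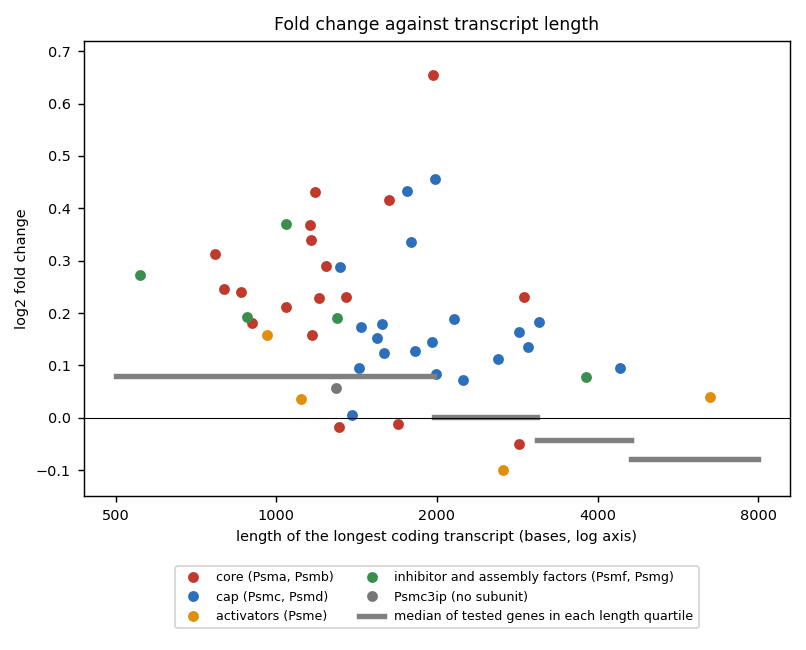
Log2 fold change (y axis) of the 48 tested proteasome genes against the length of their longest coding transcript (x axis, bases, log axis), coloured by role; grey bars give the median of all tested genes in each length quartile and are drawn from 500 to 8000 bases only. Most proteasome genes are short, and genes of the shortest quartile have a median of 0.08 against -0.08 in the longest.

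Some proteasome genes share sequence with other genes, and the part of shared reads in the calls was not tested. Of 49 proteasome genes 35 share no 76-base window with another gene and 14 of them passed, while 8 share at least 10% and 2 of these passed (Psmb3 and Psma5). Most partners carry names of predicted genes, and of 21 partner names only Ccdc138 and Mir686 are listed in the files, so that it cannot be seen how such reads were assigned.

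Promoters of leading genes are shown because proteasome genes are known to be controlled together through their promoters, by Nfe2l1 at antioxidant response elements and by CCAAT-binding NF-Y. RefSeq (GRCm38.p6) windows from 250 bases before to 50 after the start were at hand for 40 of the subunit and assembly genes. The 3 with the largest log2 fold change that had a window, and the next with an ETS motif in the printed stretch, are given 5′ to 3′ from base -250 to base -31, all from the minus strand. They are Psmd8 (chr7:29180704-29180923), Psmd4 (chr3:95042645-95042864), Psmb4 (chr3:94886989-94887208) and Psmg1 (chr16:95990991-95991210). Capitals mark CCGGAAG, the letters of an ETS motif, and ATTGG, which is CCAAT on the opposite strand.
Psmd8: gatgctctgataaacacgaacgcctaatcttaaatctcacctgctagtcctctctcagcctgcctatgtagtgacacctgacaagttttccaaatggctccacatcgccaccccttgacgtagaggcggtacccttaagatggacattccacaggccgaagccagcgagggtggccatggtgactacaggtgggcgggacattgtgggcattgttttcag
Psmd4: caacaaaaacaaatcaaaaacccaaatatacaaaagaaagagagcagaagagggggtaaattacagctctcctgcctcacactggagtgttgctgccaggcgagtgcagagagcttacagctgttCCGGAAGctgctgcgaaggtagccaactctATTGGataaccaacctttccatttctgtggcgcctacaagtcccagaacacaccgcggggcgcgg
Psmb4: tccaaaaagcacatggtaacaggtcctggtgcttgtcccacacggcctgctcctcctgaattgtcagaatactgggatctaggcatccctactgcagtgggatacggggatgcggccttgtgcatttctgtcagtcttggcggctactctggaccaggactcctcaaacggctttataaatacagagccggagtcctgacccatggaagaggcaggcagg
Psmg1: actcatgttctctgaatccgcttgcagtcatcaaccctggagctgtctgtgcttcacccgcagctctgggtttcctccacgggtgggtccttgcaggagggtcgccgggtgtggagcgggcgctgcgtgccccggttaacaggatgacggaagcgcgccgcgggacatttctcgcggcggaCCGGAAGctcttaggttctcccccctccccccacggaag
The choice of these 4 followed a look at the values. The printed stretches of Psmd8 and Psmb4 hold none of the motifs searched.

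In whole windows and on both strands, CCGGAAG was found in 14 of the 40 proteasome genes (35.0%) and in 8.86% of all 32851 windows. It was unevenly spread over the roles, with 9 of 17 cap genes, 2 of 4 activators, 2 of 4 of Psmf1 and the chaperones, and 1 of 15 core genes. CCAAT was found in 14 (35.0%) against 37.4% of all windows, among them 8 of 15 core and 5 of 17 cap genes. TGACNNNGC, the letters of an antioxidant response element, was found in 6 of the 40 against 12.4% of all windows. A gene was counted if any of its windows held the motif, while the background counts windows singly. The shares of genes and of windows are therefore unlike measures. A match is a description of the letters and not of a bound site, and no overlap between these motifs was examined.

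Genes that act with the proteasome differed in both directions. Of 41 tested genes in lists of transcription factors, other subunits and assembly factors, cap-associated enzymes and shuttles, ubiquitin genes and the p97 unfoldase, 7 were higher and 3 lower by the limma test, where 10.6% of all tested genes were higher and 4.18% lower. In the highest quartile by mean 22.6% were higher. Of the 41 genes 16 lay above 0, against 46.4% of all tested genes, and their median log2 fold change was -0.04. Shfm1 (Sem1), a small subunit of the lid that the symbol rule leaves out, had 3053, 3214 and 3345 in Ltbr-/- and 2006, 2199 and 2026 in Ly5.1. It was higher without overlap by 0.63 (adjusted p = 9.78e-08), close to the value of Psmb1. The assembly chaperone Pomp, which is needed to mature the core, had 1517, 1275 and 1616 against 1277, 1285 and 1460. Its groups overlapped, and the log2 fold change of 0.13 did not pass (adjusted p = 0.395). Zfand5, an activator of the cap, was higher by 0.26 (adjusted p = 0.0416).

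None of the 9 tested genes in the list of transcription factors, which also holds the enzyme genes Ddi2 and Ngly1, was higher. Nfe2l1, which drives proteasome genes when the protease is inhibited, had 1034, 1102 and 1077 in Ltbr-/- and 1365, 1141 and 1116 in Ly5.1. All Ltbr-/- values were the lower ones, yet the log2 fold change of -0.17 did not pass (adjusted p = 0.228). Nfe2l2 had 0.01 (adjusted p = 0.959). Nfya, a subunit of NF-Y, was lower at -0.29 (adjusted p = 0.0242) and Stat3 at -0.25 (adjusted p = 0.0444). Rad23b, a shuttle that brings ubiquitylated proteins to the cap, was lower at -0.30 (adjusted p = 0.0108), the only one of 9 cap-associated genes to pass.

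Among the ubiquitin and E1 genes, Rps27a, which encodes ubiquitin fused to a ribosomal protein, was higher by 0.88 (adjusted p = 2.90e-12), near the median of ribosomal protein genes. Ubb, a polyubiquitin gene, was higher by 0.24 (adjusted p = 0.00163) but lower after quantile normalisation, with -0.19. In the p97 list Ubxn1, a cofactor, was higher by 0.78 (adjusted p = 1.06e-10) and Faf1 by 0.27 (adjusted p = 0.0325), and the other 7 of 9 did not pass.

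Of the 16 proteasome genes that passed, 9 did so whichever of the 6 samples was left out, namely Psmb1, Psmd8, Psmd4, Psmb4, Psmb8, Psmg1, Psma7, Psmb7 and Psmc2. The count was 10 without Ltbr-/- replicate 2, without replicate 3, without Ly5.1 replicate 1 and without Ly5.1 replicate 2, 15 without Ltbr-/- replicate 1 and 20 without Ly5.1 replicate 3. When samples were scaled on ribosomal protein genes, the median of all tested genes moved to -0.79 and that of proteasome genes to -0.59. This centring shifts all genes of a sample alike, so the gap of 0.19 between the medians is fixed by its construction.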

How the data were processed

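Sorted LT/ST-HSCs of both genotypes (3 pooled replicates each, grouped by the sample labels) were profiled by RNA sequencing. The authors used SeqMan NGen for assembly and ArrayStar for quantification, and the deposited value is 1 normalised signal per gene and sample. The submitters' processing notes name DESeq2, GRCm38 and mm10. The signal was taken as 2 to the power of a regularized log, which was inferred from the values, and its log2 was tested with no pseudocount.

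Of 26216 names, 9034 did not vary. A repeated name was represented by its entry of highest mean. Names in the upper 50% by mean (13108) were fitted with lmFit and eBayes with trend (limma 3.58.1, R 4.3.3). Thresholds were a Benjamini-Hochberg adjusted p under 0.05 over all of them and a fold of at least 1.5. limma was checked on simulated data. Shared windows used GENCODE M21 transcripts, and positions and promoters RefSeq tables for GRCm38.p6.

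Proteasome genes and the other lists were chosen with earlier results of these data known. Values per sample are given for genes past both thresholds, Psmb5 to Psmb10, the highest and lowest of each role, and, after values were seen, Psmb4, Psmd4, Shfm1, Pomp and Nfe2l1. The files give no depth for each sample, and the paper gives only an average number of reads per sample. Precision rests on the spread of 3 replicates per genotype, with each gene's variance drawn towards a trend over all tested genes. The p-values measure only this moderated spread. Alternatives were a replicate block, other filters, scalings, pseudocounts, variance models and fold thresholds, a length and GC correction, and leaving out each sample. Some genes of the lists are not reported here by name.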

Additional observations from a re-analysis of the deposited data

How the results depend on the processing

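No count of proteasome genes changed direction except when samples were centred on ribosomal protein genes. With that centring 11234 tested genes passed both thresholds (11233 lower), and of the proteasome genes 27 passed both and 47 passed adjusted p, all lower, with 17 core genes, 20 cap genes, 4 activators and 5 of Psmf1 and the chaperones. Of the pathway lists 38 passed, 37 lower and 1 higher. Medians were then -0.59 for all, -0.54 for core, -0.63 for cap, -0.74 for activators and -0.58 for Psmf1 and the chaperones, and single genes had -0.12 (Psmb1), -0.32 (Psmd8), -0.34 (Psmd4), -0.34 (Psmb4), -0.36 (Psmb8), -0.40 (Psmg1), -0.41 (Psma7), -0.43 (Psmb7), -0.44 (Psmc2), -0.46 (Psmb3), -0.49 (Psma5), -0.49 (Psmc5), -0.53 (Psmb6), -0.54 (Psmb2), -0.54 (Psmb9), -0.55 (Psma1), -0.15 (Shfm1), -0.51 (Zfand5), -0.53 (Ubb) and -0.51 (Faf1). The median of all tested genes moved with them by construction. Across the 48 proteasome genes the pseudocounts, median centring and the mean of repeated names changed no call.

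With the loess for length and GC, 200 tested genes passed both thresholds, 9 proteasome genes passed adjusted p, 5 of them core and 0 of Psmf1 and the chaperones. The medians were 0.10 for all, 0.10 for core, 0.10 for cap, -0.056 for activators and 0.085 for Psmf1 and the chaperones, and the ratio differences were 0.34 for Psmb8 to Psmb5 and 0.074 for Psmb9 to Psmb6. Quantile normalisation gave 0 proteasome genes past both thresholds and 7 core genes past adjusted p, medians of 0.13 for all and -0.027 for activators, 0.078 for Psmb8 to Psmb5, and 10 pathway genes, 6 of them lower, among them Ubb at -0.19. Testing the upper 75% of names by mean gave 6 proteasome genes, 2 core genes and 5 pathway genes, and no filter gave 7 core and 6 pathway genes. A linear model without moderation gave 4 pathway genes and 3 proteasome genes (1 core, 1 cap), of which only Psmb1 was among the 16, while Psmd3 and Psmg3 were added. A fold of at least 2 left 42 tested genes and 0 proteasome genes, and no fold threshold 1936 and 16. The causes of the other changes were not tested.

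Fits without 1 sample each gave 342 to 407 tested genes and 1 proteasome gene past both thresholds, 10 to 20 proteasome genes past adjusted p, 5 to 12 core, 3 to 6 cap, 0 activators, 1 to 2 of Psmf1 and the chaperones, and 6 to 9 pathway genes. Medians ran from 0.16 to 0.19 for all, 0.21 to 0.28 for core, 0.12 to 0.18 for cap, 0.0016 to 0.069 for activators and 0.17 to 0.27 for Psmf1 and the chaperones. The difference of Psmb8 to Psmb5 ran from 0.18 to 0.31, of Psmb9 to Psmb6 from -0.06 to 0.01 and of Psmb10 to Psmb7 from -0.50 to -0.29. Same-numbered samples did not deviate together (correlations of 0.03, -0.01 and 0.09). The labels do not say whether equal numbers come from the same chimeras, and these correlations cannot decide it. With the replicate number as a block 19 proteasome genes passed, 2 of them of Psmf1 and the chaperones. Psma2, Psma6 and Psmg4 were added and the 16 were kept. The files give no depth for each sample, which limits what can be said of weak genes such as Psma8.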
